A study of Mus musculus with 9 samples.

Results

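The 3 untreated cultures (Con) of a series of 9 RNA-seq libraries are described here on their own, with no comparison between treatments. The members were taken by their labels, as replicates 1 to 3 of the untreated group, so 3 of 9 samples are described across 56289 genes. The series asked how WBT, a traditional Chinese prescription used for rheumatoid arthritis, acts on cells stimulated with TNF-α, and each of its 3 groups holds 3 libraries. The labels give every sample, untreated or treated, as RAW264.7, a macrophage-like mouse line of BALB/c strain, with the cell type macrophage. The Con cultures are labelled untreated and received neither TNF-α nor WBT. In the study's drug treatment procedure, control cells were incubated with PBS for the same time as treated cells. Poly(A) RNA was sequenced as paired-end libraries. The tables hold FPKM, a fragment count divided by transcript length and library depth, which can be compared between genes because it is set per length. A gene was counted as expressed at 1 FPKM or more in all 3 libraries. There is 1 group and 1 line, so no test was made and each SD measures only the spread between these 3 cultures, which are described as biological replicates.

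Macrophages are phagocytic cells of the myeloid lineage. Their identity is set by the transcription factor Spi1 (PU.1), their survival depends on the receptor Csf1r, and they carry Ptprc (CD45), the integrin chain Itgam and the surface protein Adgre1 (F4/80). The neural crest is a migratory population of the embryo that gives rise to Schwann cells, melanocytes, peripheral neurons and part of the mesenchyme. Foxd3, Sox10, Tfap2a and Pax3 are known as its transcription factors. Crest cells and immature Schwann cells carry the neurotrophin receptor Ngfr, the neuregulin receptor Erbb3 and the cadherin Cdh19. Fibroblasts and other mesenchymal cells secrete Col1a1, a chain of type I collagen, and the matrix protein Sparc.

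The defining markers of the labelled cell type were absent or near 0. Ptprc, Spi1, Itgam, Adgre1 and Tyrobp were each listed at 0 FPKM in all 3 libraries, and Csf1r was at 0.0327, 0.0725 and 0.0273 FPKM. The genes Sox10, Foxd3, Ngfr, Erbb3, Cdh19, Col1a1 and Sparc were all expressed, at mean ranks 41 to 963 among 21974 protein-coding genes. These markers were chosen with earlier results of these data known, so their expression is a description and no test of identity. They are also members of the crest and fibroblast lists below. The cultures are therefore called below by their group, Con, and by their leading genes, and not by a cell type. The same line name covers all 9 samples, and whether the cultures held 1 population or several cannot be read from bulk RNA. In bulk RNA, fewer cells of a type and less RNA per cell cannot be told apart.

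The sequences before 2 of the markers with a single transcript, Foxd3 and Ngfr, and before the 2 starts of Cdkn2a, whose use is described below, are shown to place these genes in the genome. Each run is the 280 bases from 250 before a RefSeq transcription start to 30 from it, on the gene's own strand, in the GRCm38.p6 build. Capitals mark the 30 transcribed bases. RefSeq windows were found for 3 of the 7 marker genes.
Foxd3, plus strand, chr4:99656049-99656328: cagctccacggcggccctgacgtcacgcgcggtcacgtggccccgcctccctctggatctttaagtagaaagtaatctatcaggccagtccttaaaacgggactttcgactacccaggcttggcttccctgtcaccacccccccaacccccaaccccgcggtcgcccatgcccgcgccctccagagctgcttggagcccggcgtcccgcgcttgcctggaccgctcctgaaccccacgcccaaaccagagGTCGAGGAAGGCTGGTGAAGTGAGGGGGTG
Ngfr, minus strand, chr11:95587669-95587948: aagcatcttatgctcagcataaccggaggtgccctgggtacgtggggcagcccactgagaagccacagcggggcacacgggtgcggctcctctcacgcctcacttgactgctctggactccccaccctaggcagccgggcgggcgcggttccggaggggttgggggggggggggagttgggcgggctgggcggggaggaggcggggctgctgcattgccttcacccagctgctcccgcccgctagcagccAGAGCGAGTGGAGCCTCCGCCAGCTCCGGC
Cdkn2a, upstream start, minus strand, chr4:89294590-89294869: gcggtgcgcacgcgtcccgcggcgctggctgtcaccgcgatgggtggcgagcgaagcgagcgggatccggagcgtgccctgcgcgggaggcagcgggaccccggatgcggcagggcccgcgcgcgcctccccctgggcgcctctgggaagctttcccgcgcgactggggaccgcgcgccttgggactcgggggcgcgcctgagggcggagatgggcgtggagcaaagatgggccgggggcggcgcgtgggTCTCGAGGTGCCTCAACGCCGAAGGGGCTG
Cdkn2a, downstream start, minus strand, chr4:89282163-89282442: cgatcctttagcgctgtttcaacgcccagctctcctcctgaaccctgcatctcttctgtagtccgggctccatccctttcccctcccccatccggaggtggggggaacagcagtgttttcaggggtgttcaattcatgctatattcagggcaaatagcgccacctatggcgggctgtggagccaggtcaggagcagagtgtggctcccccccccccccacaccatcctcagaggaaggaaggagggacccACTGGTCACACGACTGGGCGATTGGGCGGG

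The Foxd3 window held 22 CG dinucleotides and the Ngfr window 19, and the median over 32851 windows of this kind was 6. At Cdkn2a, the upstream window held 43 and the downstream window 10. The windows were searched on both strands for 3 short words. TATAAA was in none of the 4 windows and in 13.1% of all windows. GGGCGG, the core of the GC box, occurred 4 times before Ngfr, 2 times at the upstream start of Cdkn2a, 1 time at its downstream start and not before Foxd3, against 34.7% of all windows with it. ACAANG, a SOX-like word, was in none of the 4 windows and in 39.5% of all. These are descriptions of letters in a window, and nothing is drawn from them about a factor.

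Of all 56289 genes, 12177 were expressed, which is 21.6%. Of the protein-coding genes it was 10887 of 21974, or 49.5%. Each list of genes below is read against these shares. The table also listed 28964 genes, 51.5% of all, at 0 in every library. The median level of a protein-coding gene was 1.10 FPKM, and 511 genes reached 100 FPKM in all 3 libraries, of which 49 reached 1000 FPKM. By class, 142 lincRNA genes and 172 antisense genes were also expressed. Among non-coding genes chosen after their values were seen, AY036118 stood at 718 ± 51.7 FPKM (SD, n = 3), Malat1 at 264 ± 14.2 and the snoRNA host Gas5 at 152 ± 3.73. The antisense genes cannot be told apart from their partners, since the sources used here do not state strand-aware counting.

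**Figure D1:**
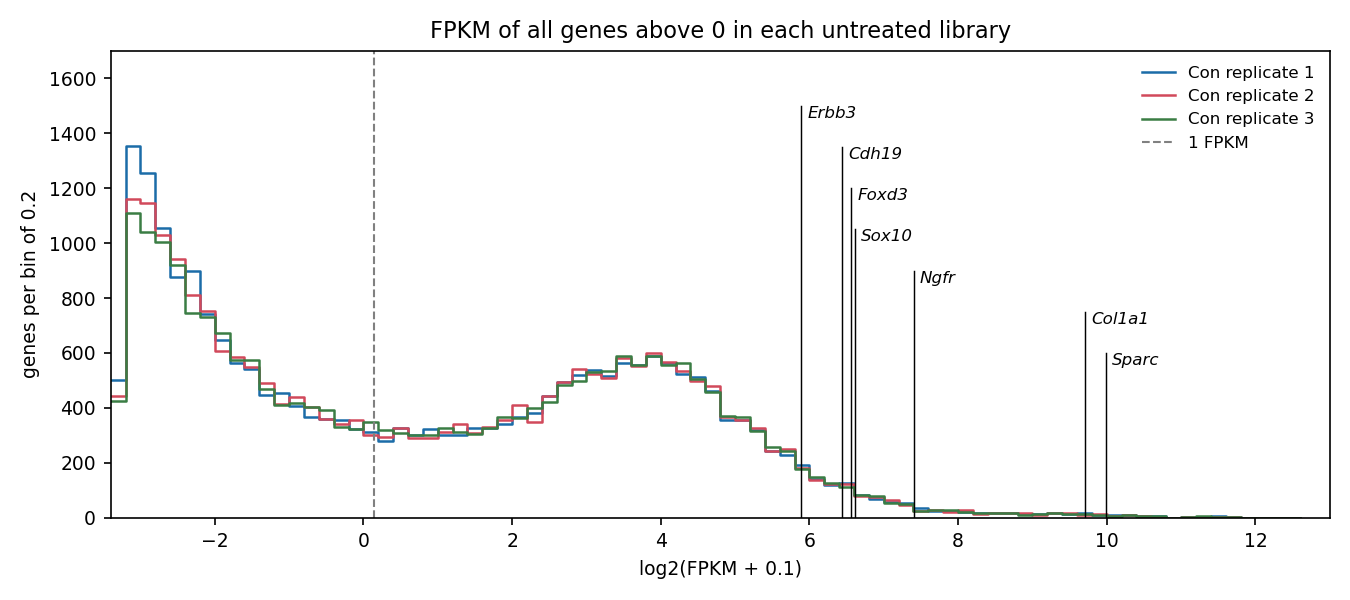
Number of genes (vertical axis, per bin of 0.2) by log2(FPKM + 0.1) (horizontal axis) in each of the 3 Con libraries, for genes above 0, with a dashed line at 1 FPKM and the 7 marker genes at their mean. The 3 curves lie on each other above 1 FPKM, and the markers stand to the right of the main peak of expressed genes, from Erbb3 at 59.2 FPKM to Sparc at 1014 FPKM.

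The most abundant transcripts were those of mitochondrial respiration and of translation. The highest value belonged to mt-Co1, subunit I of cytochrome c oxidase, at 7250, 6817 and 7316 FPKM. Eef1a1, which brings aminoacyl-tRNA to the ribosome, followed at 5900, 5761 and 5788 FPKM. Among the 20 highest genes, 9 were encoded in the mitochondrion and 5 served translation, namely Eef1a1, the elongation factor Eef2 and the ribosomal proteins Rplp1, Rplp0 and Rps26. The other 6 are copies or parts of such genes. Of these, 4 are pseudogenes on chromosome 1, Gm10925, Gm28661, Gm29216 and Gm28437, whose transcripts match mt-Atp6, mt-Co2, mt-Co1 and mt-Co3 over 98.8 to 100% of the shorter sequence. Their levels are uncertain for that reason. Gm28437 was at 2242 FPKM and mt-Co3 at 2241 FPKM, and Gm28661 was at 3348 FPKM beside 3368 FPKM of mt-Co2. The last pair, Gm26377 of 108 bases and Gm27597 of 80 bases, are annotated as miRNA genes and share exon bases with Eef1a1 and Rpl19, so their levels are uncertain too.

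The 10 highest genes together held 9.17, 8.79 and 9.11% of summed FPKM, the 100 highest 32.9, 31.8 and 32.2%, and the 1000 highest 62.6, 61.6 and 61.5%. Mitochondrially encoded genes held 7.99, 7.48 and 7.82%, and the 83 ribosomal protein genes 15.3, 15.0 and 14.8%. Each of these shares spanned at most 1.10 percentage points over the cultures. The mitochondrial share leaves out the pseudogene copies named above, whose levels are uncertain.

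Outside mitochondrial and ribosomal protein genes, the highest protein-coding genes (chosen after their values were seen) were the translation elongation factor genes Eef1a1 and Eef2. After them came Tpt1 at 1349 FPKM, the cytokine Mif at 1320 FPKM, the glycolytic enzyme Pkm at 1177 FPKM and the chaperone Hsp90ab1 at 1138 FPKM. The calcium-binding protein gene S100a4 followed at 1131, 1113 and 1078 FPKM, and the galectin Lgals1 at 1058, 1065 and 1015 FPKM. Sparc ranked 9 by this order. Other matrix genes in this order were the collagen gene Col1a1 at rank 15, the fibronectin gene Fn1 at rank 19, Col3a1 at rank 24 and the protease gene Mmp2 at rank 27. Mmp2 was at 590, 587 and 591 FPKM.

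Of 40 macrophage genes, 8 were expressed, a share of 20% beside 49.5% of protein-coding genes. Their median was 0.0263 FPKM and their summed level 56.8, 56.6 and 44.9 FPKM. The 8 were Runx1, Tlr4, Ly96, Arhgdib, Cd14, Lyn, Cebpa and Itgb2. Runx1, a transcription factor of blood and sensory neurons, was the highest at 15.6, 16.2 and 15.4 FPKM. Cd14, the co-receptor for lipopolysaccharide, was at 5.11, 4.37 and 4.30 FPKM, and Ly96 (MD-2) of the same receptor at 5.45, 5.90 and 6.50 FPKM.

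Tlr4, the receptor chain itself, differed between cultures. It stood at 13.6 and 12.5 FPKM in replicates 1 and 2 and at 2.24 FPKM in replicate 3. Its main transcript, of 4077 bases, had the same pattern, with 12.6, 11.7 and 1.65 FPKM, and a short processed transcript of 504 bases had not, with 0.596, 0.473 and 0.558 FPKM. Replicate 3 was low in the long form and not in the short one. The cause was not tested.

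The remaining members were low or listed at 0. Another 15 were above 0 in some library and not expressed, among them Cd68 at 1.45, 0.939 and 1.39 FPKM and the lysozyme gene Lyz2 at 0.642, 0.493 and 0.308 FPKM. The other 17 were listed at 0 throughout: Ptprc, Spi1, Itgam, Adgre1, Tyrobp, Cybb, Ctss, Cd52, Fcgr3, Mrc1, Msr1, C1qa, C1qb, C1qc, Trem2, Acp5 and Ikzf1. They include the receptor adaptor Tyrobp, the oxidase subunit Cybb, the protease Ctss and the 3 chains of complement C1q. At the estimated depths, 3 fragments, the most that a count of 0 allows, would be 0.0201 to 0.289 FPKM for these genes. All 20 housekeeping genes were expressed, with a median of 202 FPKM.

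**Figure D2:**
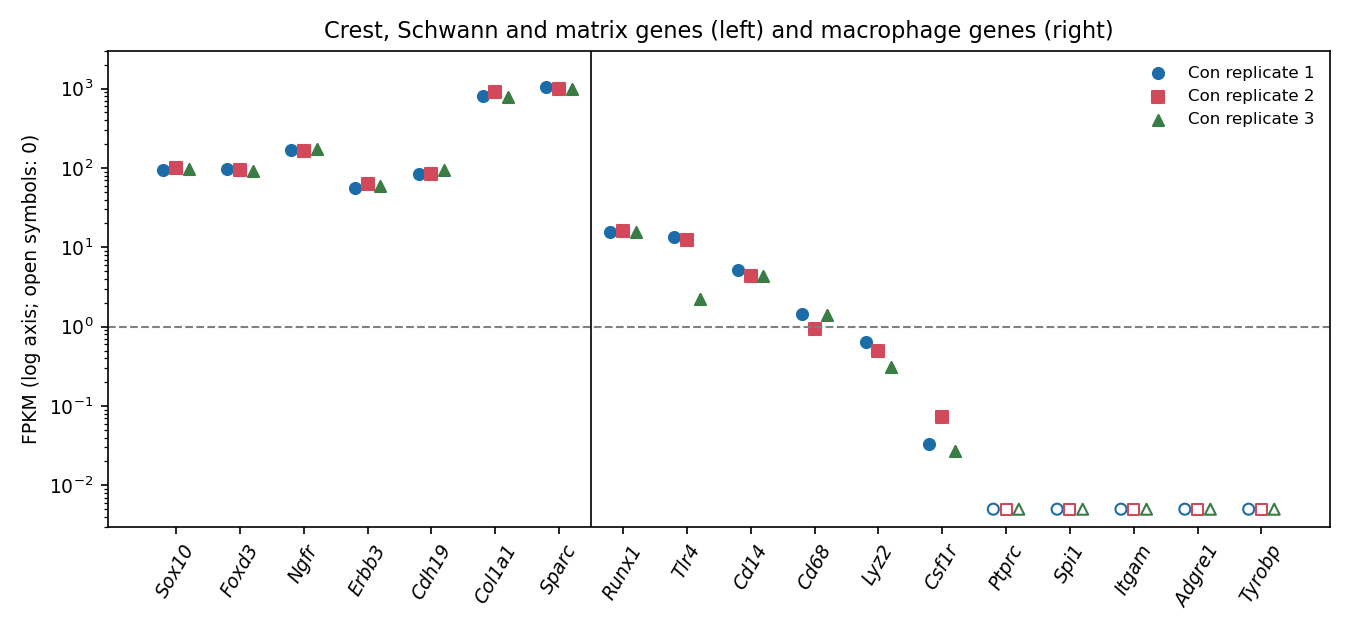
FPKM (log axis) of 7 crest, Schwann and matrix genes on the left and 11 macrophage genes on the right in each Con library, where open symbols stand for 0 and the dashed line for 1 FPKM. The genes on the left lie between 56.3 FPKM, Erbb3 in replicate 1, and 1055 FPKM, Sparc in replicate 1, while 5 of the macrophage genes are at 0 in all 3 libraries.

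The other blood lineages were low as well. Of 21 lymphoid and erythroid genes, 1 was expressed, the integrin chain Itga2b of platelets at 1.07, 1.82 and 1.01 FPKM, and 12 were listed at 0, among them Cd3d, Cd3e, Cd2, Cd8a and Ms4a1.

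Of 34 neural crest transcription factor genes, 19 were expressed. This share, 55.9%, was not far above 49.5% of protein-coding genes and 48.8% of the 717 factors below. The median of the list's members was 2.41 FPKM. The 2 highest were Sox10, which directs crest cells to the Schwann cell and melanocyte fates, and Foxd3, which keeps crest cells undifferentiated. Sox10 was at 94.0, 101 and 97.4 FPKM and Foxd3 at 97.5, 93.2 and 92.6 FPKM. These ranges overlap, so neither stands above the other by more than the spread. Ets1 followed at 39.2, 41.1 and 39.6 FPKM.

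Some genes of the crest border and of cell emigration were also expressed, and others were not. Tfap2a was at 14.9, 14.6 and 14.4 FPKM and Pax3 at 13.2, 13.4 and 13.4 FPKM. The repressors Snai1 and Snai2, which turn off cadherins at emigration, were at 14.4 ± 0.345 and 13.3 ± 0.540 FPKM. Twist1, which is also on the fibroblast list, was at 24.8, 24.9 and 24.8 FPKM. Sox9, the cartilage and early crest factor, was lower at 10.5, 10.8 and 11.2 FPKM. Tfap2b and Zic1 were listed at 0, and Pax7 was at 0.0103 FPKM, so Pax3 stood alone of this pair.

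Of 37 receptor and surface protein genes of crest and early Schwann cells, 22 were expressed, 59.5% beside 49.5% of protein-coding genes. Their median was 6.70 FPKM. The matrix protein gene Postn was at 240, 235 and 253 FPKM and Ngfr at 169, 165 and 174 FPKM. Cdh19 was at 84.0, 83.1 and 93.3 FPKM and the intermediate filament gene Nes at 78.0, 84.5 and 77.9 FPKM.

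The neuregulin receptors were unequal. Erbb3, which binds neuregulin and lacks strong kinase activity, was at 56.3, 62.1 and 59.2 FPKM, and its kinase partner Erbb2 at 8.02, 8.64 and 8.44 FPKM. Erbb4 was at 0.00136 FPKM. Their ligand gene Nrg1 stood at 0.977, 1.2 and 1.23 FPKM, which misses the limit in replicate 1. Ret, Gfra3, Ednra, Ntrk2 and Kit were listed at 0, and Ednrb was at 0.0259 FPKM.

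Genes of mature myelin were mostly low. Of 25 genes of myelin and mature Schwann cells, 11 were expressed, 44%, with a median of 0.557 FPKM. The expressed members include Jun at 102, 99.0 and 102 FPKM and Sox2 at 41.2, 39.7 and 42.7 FPKM, both known from immature Schwann cells, Cnp at 49.2, 49.8 and 50.4 FPKM and the connexin gene Gjc3 at 25.6, 27.3 and 28.4 FPKM. Pmp22 was at 18.8 ± 1.74 FPKM (n = 3). The myelin gene Mbp was at 0.214 FPKM, and Egr2, the factor that turns on myelination, at 0.679, 0.952 and 0.933 FPKM. Mag, Gjb1, Ugt8a and Mobp were listed at 0.

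**Figure D3:**
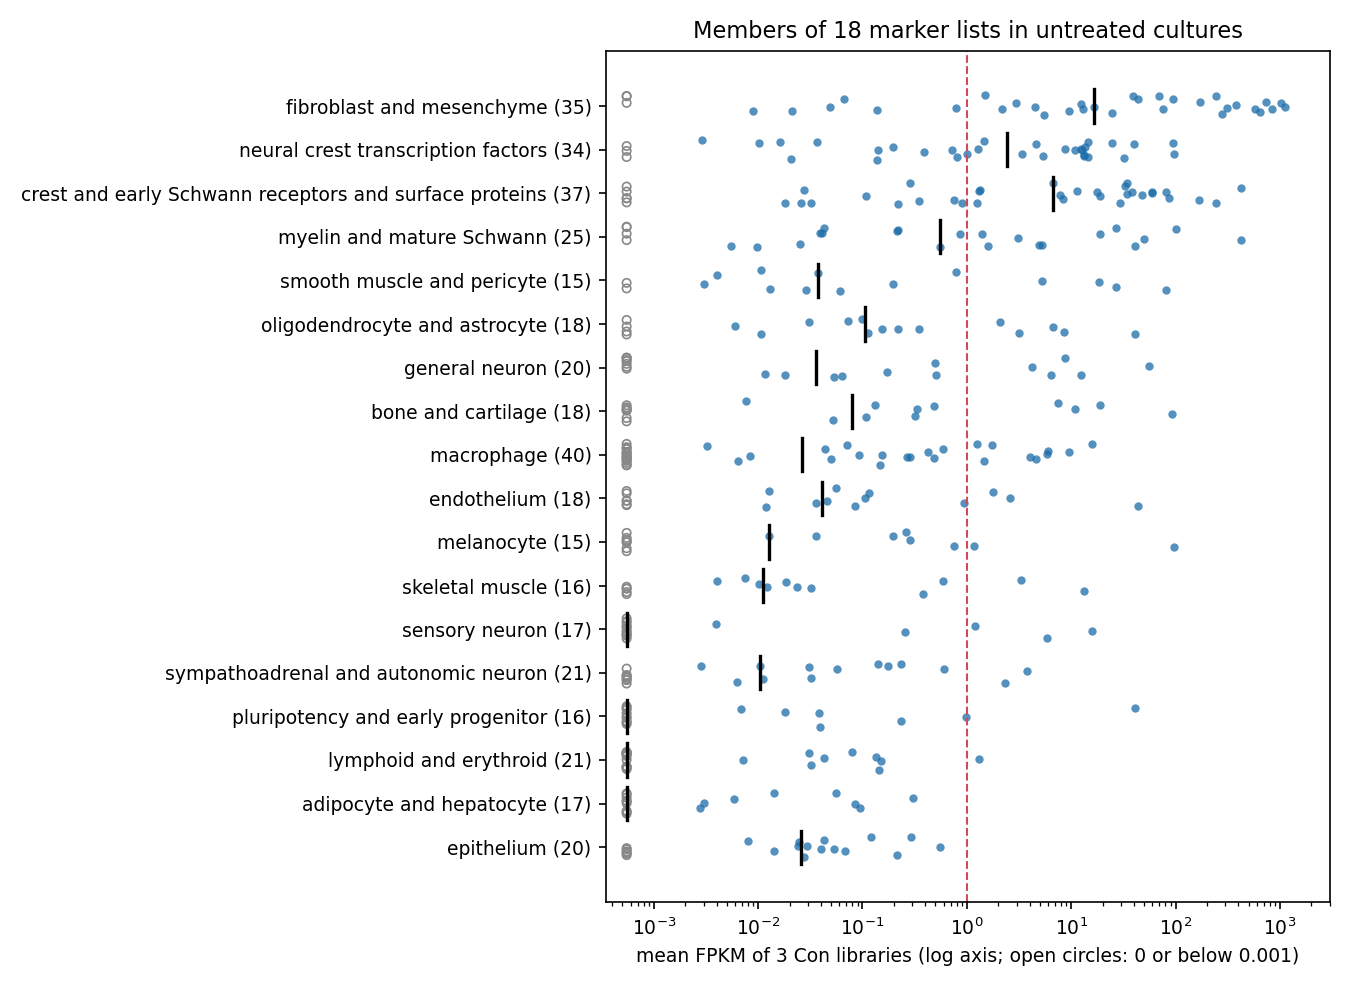
Mean FPKM over 3 Con libraries (log axis) of each member of 18 marker lists, with the number of members in brackets, the list's median as a black bar and 1 FPKM as a dashed line. Open circles on the left are members at 0 or below 0.001. The fibroblast list and the 2 crest lists have their medians to the right of 1 FPKM, and the other 15 lists to its left. The median of all protein-coding genes, 1.10 FPKM, also lies just to the right of that line.

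Of 35 fibroblast and mesenchyme genes, 26 were expressed, 74.3%, with a median of 16.5 FPKM, the highest share among the lineage lists. Col1a1 was at 815, 901 and 791 FPKM, Col1a2, the other chain of type I collagen, at 259, 293 and 278 FPKM, and Col3a1 at 633, 668 and 640 FPKM. Vim, the mesenchymal filament, was at 605, 614 and 522 FPKM and Fn1 at 694, 797 and 708 FPKM. The receptor gene Pdgfrb was at 69.2, 69.4 and 71.5 FPKM against 5.10, 5.98 and 5.54 FPKM of Pdgfra. The summed level of the list was 6491 to 6954 FPKM over the libraries.

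The list was not complete. Lum, Prrx1 and Tcf21 were listed at 0. Thy1, a surface protein of many fibroblasts, was at 0.00890 FPKM and Fap at 0.0670 FPKM. Prrx2, the paralogue of Prrx1, was at 10.0, 10.3 and 8.18 FPKM.

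Other derivatives of the crest were described by their own lists. Of 15 melanocyte genes, 2 were expressed, Sox10 and Mitf, the latter the master factor of pigment cells, at 1.11, 1.11 and 1.25 FPKM. Tyr, Tyrp1, Slc45a2, Oca2, Gpr143 and Kit were listed at 0. Of 21 sympathoadrenal genes, 2 were expressed, Gata2 at 3.48, 4.0 and 3.72 FPKM and the noradrenaline transporter gene Slc6a2 at 2.50, 2.24 and 2.22 FPKM, while Th, Hand1 and Npy were listed at 0. Of 17 sensory neuron genes, 2 were expressed, Runx1 and Runx3, and 12 were listed at 0, among them Neurog1, Neurog2, Pou4f1 and Isl1.

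General neuronal genes were few. Of 20, 5 were expressed, led by Tubb3 at 54.7, 53.4 and 57.9 FPKM, the neurofilament genes Nefm at 6.34 ± 0.394 and Nefl at 4.19 ± 0.120 FPKM, and Uchl1 and Map2. Stmn2, Rbfox3, Dcx, Elavl4 and Syt1 were listed at 0. Of 18 oligodendrocyte and astrocyte genes, 5 were expressed, Sox2, Aldoc, S100b, Olig2 and Gpr17, with Olig2 at 3.31, 3.10 and 3.11 FPKM.

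Lists of other tissues held a few expressed genes each. Of 18 bone and cartilage genes, 4 were expressed: Spp1 (osteopontin) at 93.0, 92.2 and 90.5 FPKM, the bone factor Runx2 at 18.5, 17.5 and 20.3 FPKM, Sox9 and Col11a2. Sp7, Bglap, Ibsp and Acan were listed at 0. Of 15 smooth muscle and pericyte genes, 4 were expressed, with Mcam at 79.6, 80.4 and 84.2 FPKM and Acta2 at 27.8, 27 and 26 FPKM. Of 18 endothelial genes, 3 were expressed, with Eng at 43.5, 43.2 and 45.3 FPKM. Pecam1 was at 0.0355 FPKM and Cdh5 was listed at 0.

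No gene of the 20 on the epithelial list was expressed, and the summed level of that list was 1.33 to 1.71 FPKM. No gene of the 17 of adipocytes and hepatocytes was expressed either. Of 16 pluripotency genes only Sox2 was, and Pou5f1 was listed at 0. Of 16 skeletal muscle genes, Pax3 and Tnnt1 were expressed and Myod1, Myf5 and Myog were listed at 0. Of 22 imprinted genes, 10 were expressed, led by Igf2r at 74.1, 76.2 and 77.1 FPKM, and H19, Igf2, Meg3 and Dlk1 were listed at 0.

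The Y-linked genes Eif2s3y at 30.8, 32.1 and 36.5 FPKM, Ddx3y at 15.4, 14.9 and 16.4 FPKM, Uty and Kdm5d were expressed, and Xist, which silences an X chromosome in females, was at 0.0256 FPKM. RAW264.7 is known as a line of male origin.

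Of 717 genes of 47 families of transcription factors, 350 were expressed, 48.8%, close to the 49.5% of all protein-coding genes. Of these, 173 had a mean of 10 FPKM or more, and 166 were listed at 0 in all libraries. By mean FPKM the order began with Atf4, Jun, Sox10, Foxd3 and Scx. Atf4, the factor of the integrated stress response, was at 108, 102 and 120 FPKM and Jun, an AP-1 subunit, at 102, 99.0 and 102 FPKM. Sox10 and Foxd3 thus ranked 3 and 4 among these 717 genes, next to factors that most cells use. The families were set by hand from gene symbols, and factors outside them were not ranked.

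Scx, the factor of tendon, was at 95.3, 87.8 and 87.7 FPKM. From Jun down to Jund, the range of each gene overlapped that of the next, so the order of neighbours is not firm. Further down came the nuclear receptor Nr2f1 at 78.1 ± 2.85 FPKM, Sox4 at 63.7 ± 0.576, Zeb2 of crest emigration at 53.5 ± 0.80, and the ETS factor Elk3 at 52.7 ± 2.53. General factors among the 25 highest were Tfdp1, Trp53, Srebf2, Tcf12, Mxd4, Junb, Atf3, Tcf3, Nfic, Stat6, Srebf1, Nfkb1, Max and Tgif1.

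Hmga1, a chromatin protein, stood out in its spread, with 35.6, 33.9 and 80.7 FPKM. Its transcript of 1898 bases was at 1.33, 1.48 and 41.4 FPKM. The high value of replicate 3 was thus found in transcripts that were near 1 FPKM in the other libraries. The part of the division between transcripts was not tested.

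**Figure D4:**
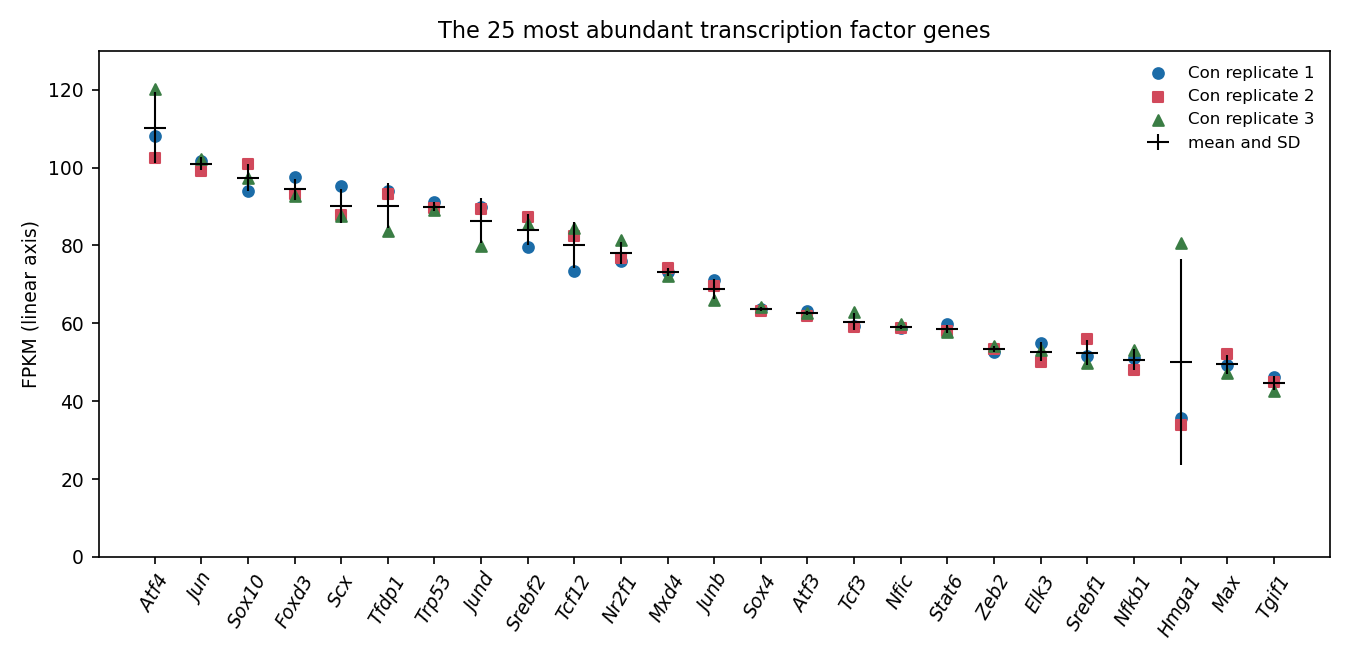
FPKM (linear axis from 0) of the 25 genes with the highest mean among the 717 listed transcription factor genes. Shown are 3 Con libraries with a bar for the mean and a line for the SD. The 3 libraries lie within a few FPKM for most genes, and Hmga1 has 1 library at 80.7 FPKM beside 2 at 33.9 and 35.6 FPKM.

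By family, SOX genes were expressed in 8 of 19 cases, FOX genes in 19 of 44 and bHLH genes outside the named groups in 26 of 66, led by Sox10, Foxd3 and Scx. All 10 NF-κB and NFAT genes, all 3 RUNX genes, all 4 TEAD genes and all 4 NFI genes were expressed. Of the 9 PAX genes 2 were, and of the 54 NKL homeobox genes 6 were, led by En1 at 19.6 FPKM, which was chosen after its values were seen.

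Hox genes, whose order along each cluster matches their order of use along the body axis, were partly expressed: 9 of 39 were, against 48.8% of all factors. Hoxb9 was the highest at 26, 25.5 and 26 FPKM, in paralogue group 9. Hoxd8 followed at 8.03, 8.26 and 7.92 FPKM, Hoxa5 at 5.84, 6.29 and 5.98 FPKM, and Hoxa10 at 5.32, 5.83 and 6.09 FPKM. The ranges of Hoxa5 and Hoxa10 overlap.

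Hoxd4 was at 4.06, 5.74 and 4.99 FPKM, Hoxa3 at 2.93, 4.26 and 4.21 FPKM, Hoxa6 at 2.71 ± 0.351 and Hoxb8 at 1.80 ± 0.409 FPKM (n = 3 each). In a single library or in 2 of the 3, Hoxb13, Hoxa2, Hoxa7 and Hoxd3 reached 1 FPKM too, at means of 1.16, 1.02, 0.931 and 0.973 FPKM. By cluster, 5 of 11 HoxA genes, 2 of 10 HoxB genes, none of 9 HoxC genes and 2 of 9 HoxD genes were expressed, and 13 genes were listed at 0. The non-coding RNA genes Hotairm1 and Hoxd3os1, chosen after their values were seen, were at 9.94 ± 1.47 and 6.19 ± 0.983 FPKM.

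**Figure D5:**
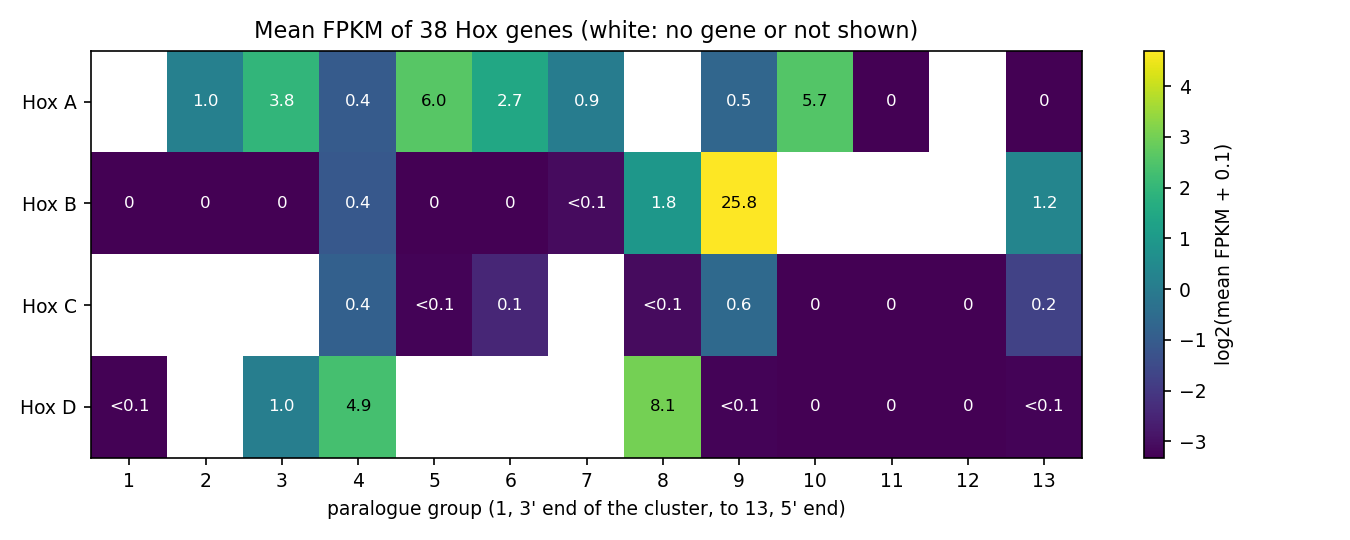
Mean FPKM over the 3 Con libraries of 38 Hox genes, by cluster (rows) and paralogue group (columns), coloured by log2(mean FPKM + 0.1). The largest value, 25.8 FPKM, lies at Hoxb9, and the HoxC row holds no gene of 1 FPKM or more.

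The genes of the cell cycle were expressed. All 30 genes of replication and mitosis were, with a median of 8.74 FPKM, among them Mcm7 at 57.3, 56.3 and 53.4 FPKM and Mki67 at 5.43, 5.81 and 6.18 FPKM. Cdk1 was at 29.4, 11.1 and 14 FPKM, and its 2 main transcripts exchanged order: that of 1253 bases was at 25.6, 0.413 and 1.23 FPKM and that of 4375 bases at 1.59, 6.53 and 6.93 FPKM. The spread of the gene went with the division between these transcripts, whose part in it was not tested.

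Of 24 genes of D cyclins, CDK inhibitors and growth arrest, 22 were expressed, with a median of 21.1 FPKM. Cdk4, the kinase that D cyclins activate, was at 263, 269 and 277 FPKM, and Trp53 at 91.3, 89.6 and 89.0 FPKM. Cdkn2a, whose 2 starts encode the CDK inhibitor Ink4a and the p53 activator Arf, was at 174, 144 and 143 FPKM. Cdkn2b, an INK4 gene nearby, was listed at 0, and Mtap on the other side was at 94.8, 90.7 and 90.4 FPKM.

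The 2 starts of Cdkn2a, 12427 bases apart, were used unequally. The downstream start, from which Ink4a is read, held 99.9, 98.7 and 99.4% of the FPKM of the gene's transcripts, at 174, 142 and 142 FPKM. The upstream start, which gives Arf, held 0.254, 1.81 and 0.835 FPKM. Both transcripts share their later exons, so the split rests on the fragments of the first exons. Its upstream window, printed above, was the one with 43 CG dinucleotides, and the used downstream window held 10.

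Runx1 has a distal and a proximal start. The distal one, known from blood cells, held 92.1, 90.2 and 66.1% of its FPKM, and the proximal one 4.28, 5.51 and 28.2%. Replicate 3 is apart in this measure, while the gene total was alike in all 3. Pmp22 could not be described this way, since the largest share lay at different starts in different cultures. Its most upstream start held 75.9, 0 and 3.29%, and the next one 18.5, 93.3 and 91.7%.

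Of 18 tumour suppressors of nerve sheath and crest tumours, 17 were expressed, with Nf1, the gene of neurofibromatosis, at 12.3, 12.7 and 13.6 FPKM and Nf2 at 29.1, 29.2 and 30.4 FPKM. Suz12 was at 24.0, 11.5 and 11.7 FPKM.

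Of 49 receptor tyrosine kinase genes, 24 were expressed, 49.0%. Axl was at 130, 140 and 129 FPKM, Fgfr1 at 108, 123 and 136 FPKM and the collagen receptor Ddr1 at 58.0, 63.2 and 62.3 FPKM. Met, Igf1r and Egfr were lower, at 27.4 ± 2.62, 26.7 ± 0.930 and 10.3 ± 0.299 FPKM. Of 59 secreted growth factor and cytokine genes, 29 were expressed, 49.2%. Fgf5 was at 67.9, 65.1 and 63.4 FPKM, Vegfa at 57.4, 61.8 and 53.1 FPKM, and the chemokine gene Ccl2 at 38.1, 32.7 and 37.1 FPKM. Tnf and Il1b, cytokines of activated macrophages, were listed at 0.

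Several ligand genes were expressed where the gene of the signalling receptor was not. Gdnf at 19.5, 20.7 and 20.3 FPKM and Artn at 33.8, 38.6 and 34.9 FPKM bind co-receptors that signal through Ret, which was listed at 0, as was Gfra3, the co-receptor of Artn. The co-receptors Gfra1, of Gdnf, and Gfra2 were expressed, at 7.88 ± 0.565 and 11.4 ± 0.632 FPKM. The macrophage growth factor genes Csf1 at 20.2, 21.8 and 23.1 FPKM and Il34 at 16.1, 15.3 and 17.7 FPKM were expressed beside Csf1r at 0.0442 ± 0.0247 FPKM.

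Kitl was at 16.4, 19 and 22 FPKM and its receptor Kit was listed at 0. Platelet-derived growth factors and their receptors were on both sides, Pdgfa at 23.3, 28.6 and 20.6 FPKM and Pdgfb at 18, 19.4 and 18.1 FPKM beside Pdgfrb. These are levels of RNA, and no protein was measured.

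Of 26 genes of TNF receptors and signalling, 25 were expressed. Tnfrsf1a, the main receptor of TNF-α, was at 36.0, 36.7 and 36.1 FPKM and Tnfrsf1b at 15.6, 17.4 and 16.8 FPKM, with Nfkb1 at 51.0, 47.9 and 53.1 FPKM and Rela at 39.4, 36.2 and 42.5 FPKM. The exception was Birc3, at 0.0344 FPKM.

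The 3 cultures were alike across genes. Over 12669 genes with a mean of 1 FPKM or more, Pearson's r of log2(FPKM + 0.1) was 0.979 for replicates 1 and 2, 0.976 for 1 and 3, and 0.978 for 2 and 3, and Spearman's rho was 0.985 to 0.986. These are across genes, which are not independent, and the libraries share one processing. No pair of libraries held identical values. Between 158 and 214 of these genes differed by more than 2-fold in a pair. The median SD of log2 was 0.0956, and 0.0695 over the 6659 genes with a mean of 10 FPKM or more. Of 285 list members at a mean of 1 FPKM or more, 5 had an SD above 0.5, namely Tlr4, Cdk1, Nrtn, Map3k7 and Suz12.

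Genes with a mean of 10 FPKM or more were ranked by the SD of log2(FPKM + 0.1). The 8 with the largest SD were Gm26619, Pcdhgb4, Gm25951, Mir686, Pcdhgb8, Hist2h2aa1, Gm20431 and Snord16a, and each was near 0 in at least 1 library. Each shares exon bases with another gene. Gm26619 was at 173, 0 and 0.0177 FPKM and its partner Gm10260 at 483, 752 and 746 FPKM, and their sum was 656, 752 and 746 FPKM. Pcdhgb4 was at 48.6 FPKM in replicate 2 alone and Pcdhgb8 at 46.5 FPKM in replicate 3 alone. Both belong to the 26 genes of a protocadherin locus that share exon bases, and the sum over these was 46.8, 60.03 and 57.5 FPKM.

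Hist2h2aa1, a replication-dependent histone gene, was at 37.1, 19.3 and 0 FPKM, and its sum with 3 overlapping genes was 41.4, 23.4 and 1.72 FPKM. Gm20431, which shares exon bases with Tmem189 and Ube2v1, was at 27.9, 0 and 26.9 FPKM, with sums of 49.9, 57.9 and 45.7 FPKM. Gm25951, Mir686 and Snord16a are 64 to 109 bases long and share exon bases with Rcc2, Psmb5 and Rpl4.

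The depth estimated from the smallest steps in the values was 26051845, 21573926 and 20224342 fragments. Of the low values, 51.8 to 53.6% were whole fragments to within 0.1, so these totals are approximate.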

How the data were processed

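Poly(A) RNA of 3 untreated cultures was sequenced as paired-end libraries. The authors deposited FPKM per gene and per transcript, made, as the study's procedure drawing gives it, with HISAT2, StringTie and Ballgown. Versions, genome build and strand handling are not given in the sources used here. Per the labels, the columns Con1 to Con3 belong to the untreated samples, and no other column was used. The deposited columns held no comparisons of the authors.

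Gene identifiers were matched to GENCODE release M21 of GRCm38, which held 98.1% of 56289 genes and 97.8% of 144726 transcripts. Symbols, classes and overlaps come from it, and promoter windows from RefSeq. Transcripts were assigned to the RefSeq start within 500 bases. FPKM alone gives no depth. It was estimated from the value steps of 10717 genes with a single transcript of at least 1000 bases. The search was held to a preset range of depths. On simulated data with depths inside that range and an assumed share of fractional counts, the estimate was off by at most 0.19%. The simulation does not check the range, and the error in these libraries is not known. Python 3.11.15, pandas 2.3.3, numpy 2.4.6 and matplotlib 3.10.9 were used. Limits from 3 fragments cover counting error only.

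No test was made, since there is 1 group. The limit was 1 FPKM in all 3 libraries and the pseudocount 0.1. Named were the 20 highest genes, the 5 highest members and those expressed (up to 12) of each list, and list members at 0. Also named were the 25 highest transcription factors, Hox genes at 1 FPKM in any library and the 7 markers, with paralogues. The last were the 8 genes of largest SD of log2 among those with a mean of 10 FPKM or more. Genes outside this rule are said to be chosen after their values were seen, as were the list members named below for a low level above 0. The gene lists, factor families and markers were chosen with earlier results of these data known. In the lists, Gpr126 and Drgx were other names of genes listed also as Adgrg6 and Prrxl1. Alternatives covered the limit, the rule over libraries, transcript sums, rescaling, mitochondrial and short genes, the pseudocount, the filter, centring and each library left out. Some genes and the results that need them are not reported here.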

Additional observations from a re-analysis of the deposited data

How the results depend on the processing

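Of 273 alternative values over the counts, shares and correlations, 261 stayed within 1.5 times the count or within 1 SD of the value. For the counts, the limits of 0.5 and 2 FPKM, the mean of the libraries, transcript sums and rescaling to TPM left every count named here within 1.5 times: all genes, all listed genes, macrophage genes, crest transcription factors, crest and Schwann surface genes, fibroblast genes, transcription factors and Hox genes. Among 27 lists, 3 smaller ones with 1 or 2 expressed genes moved by 1 gene. The share of summed FPKM in the 100 highest genes went from 32.3 to 29.0% without mitochondrially encoded genes, with their pseudogene copies left in. The mean Pearson's r between libraries went from 0.978 to 0.971 with a pseudocount of 0.01, to 0.986 with 1 and to 0.990 with no filter on low values. Leaving out each Con library in turn gave 12313 to 12355 expressed genes, 280 to 283 listed genes, 8 to 9 macrophage genes, 19 to 20 crest factors, 22 surface genes, 26 fibroblast genes, 352 to 356 transcription factors, 9 to 10 Hox genes, a share of 32.0 to 32.6%, and an r of 0.976 to 0.979. No paired analysis was possible because there is 1 group. Without replicate 3, the SD of Tlr4 rests on 13.6 and 12.5 FPKM. The depth limits genes near 0: 3 fragments are 0.0201 to 0.289 FPKM for the macrophage genes listed at 0.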
